A study of Homo sapiens with 8 samples.

Results

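The secreted binding proteins of the insulin-like growth factors (IGFs), the clearance receptor IGF2R and the stanniocalcins STC1 and STC2 were followed in C4-2 cells under DTHIB. They comprise 8 genes, IGFBP2, IGFBP3, IGFBP4, IGFBP5, IGFBP6, IGF2R, STC1 and STC2, picked by symbol and found through their Ensembl identifiers among 58884 genes in the table of normalized read counts. C4-2, a human prostate cancer line, descends from LNCaP and is castration-resistant. One group of 4 libraries came from cells given 1 µM DTHIB, also called E12 and described by the submitters as a direct inhibitor of the heat shock factor HSF1, for 48 h. The other group of 4 came from cells given the solvent DMSO, and both groups were of the same unmodified line in the same serum-containing medium. The comparison asks how transcript levels differed under the compound. The labels do not say whether the 4 libraries of a group are separate cultures, so p-values reflect the spread between these samples only; that spread may be technical, and the data speak for 1 cell line.

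IGF1 and IGF2 act through the IGF1 receptor, a tyrosine kinase that promotes growth and survival. IGFBPs hold most IGF outside the cell, prolong its life and keep it from the receptor until a protease cuts them, and some also act on cells without IGF. The metalloproteinase PAPP-A frees IGF by cutting IGFBP4 and IGFBP5, and both stanniocalcins inhibit it, STC2 through a covalent bond. IGF2R, the cation-independent mannose 6-phosphate receptor, takes IGF2 to lysosomes for destruction and also sorts newly made lysosomal enzymes. In the prostate, IGFBP3 is a substrate of the secreted protease prostate-specific antigen.

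Under DTHIB the STC2 transcript was 2.80-fold higher and the STC1 transcript 4.39-fold lower, IGFBP3 was 2.47-fold higher and IGF2R 1.35-fold higher. IGFBP2, the most abundant binding protein transcript, and IGFBP5 did not pass the test. IGFBP4, at 14 to 31 reads per library, was higher by a call that most alternative analyses did not keep. The authors' deposited result for it did not pass 0.05 either (DESeq2 adjusted p = 0.118). IGFBP6 averaged 5.62 normalized counts, below the minimum mean of 10, and was not measurable. Of the 7 measurable genes, 4 rose, 1 fell and 2 were not called, with a median log2 fold change of 0.44 against -0.01 over all tested genes. A call is a Benjamini-Hochberg adjusted p under 0.05 in limma, and a log2 fold change is the difference of mean log2(normalized count + 1), DTHIB minus DMSO; plain folds are ratios of mean normalized counts. Calls were common in this comparison: 64.6% of the 17194 tested genes changed, 31.0% rose and 33.7% fell, and in 57.9% the 2 groups' values did not overlap. In 4 of the 7 genes the groups did not overlap, and both this share and the share called are close to those backgrounds.

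**Figure D1:**
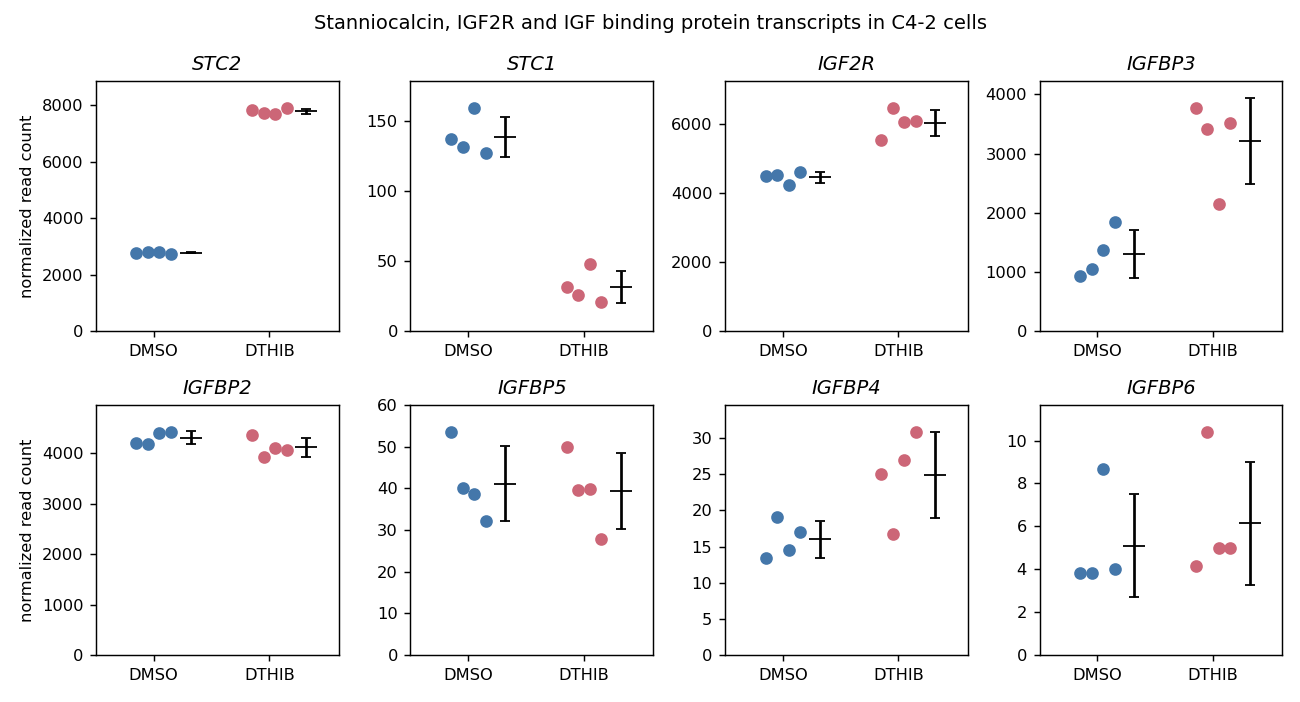
Normalized read count (vertical axis, from 0, own scale for each gene) of the 8 genes in 4 DMSO (blue) and 4 DTHIB (red) libraries; points are libraries and the black bar is the mean ± SD. STC2, STC1, IGF2R and IGFBP3 separate the groups, and the other 4 genes overlap.

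The libraries held 27229291 to 30926053 counted reads, 29499458 to 30926053 with DMSO and 27229291 to 29159387 with DTHIB. Across genes, the log2 values of libraries had Pearson coefficients of 0.993 to 0.994 within a group and of 0.973 to 0.981 between groups; genes are not independent replicates. All 9 luminal prostate markers were measurable, with a summed level of 216149 to 220554 normalized counts in DMSO and 263517 to 269377 in DTHIB; 6 of them rose and 3 fell, and KLK3, which rose, is a large part of the sum. Of 9 fibroblast and smooth muscle markers 4 were measurable, with a sum of 1220.5 to 1334 in DMSO and 1426 to 1748 in DTHIB; 2 rose and 1 fell, and PDGFRA was at 0 in every library. Of 5 endothelial markers 1 was measurable, with a sum of 133 to 171 in DMSO and 147 to 193 in DTHIB, and it was not called. Of 6 blood markers 2 were measurable, with a sum of 21.2 to 33.5 in DMSO and 14.96 to 31.96 in DTHIB; 1 fell, and HBB was at 0 in every library. Beside these marker counts, 31.0% of all tested genes rose and 33.7% fell. The part of these marker differences in the results below was not tested. In bulk RNA, fewer cells of a kind and less RNA per cell cannot be told apart.

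STC2 (ENSG00000113739, chromosome 5, 173314713 to 173329503, minus strand, GENCODE 29 on GRCh38) encodes a secreted glycoprotein dimer made in many tumours and known to be induced by endoplasmic reticulum stress. It was measured at 2783, 2790.5, 2802 and 2742 normalized counts in the DMSO libraries and at 7819.6, 7736, 7707 and 7910.3 in the DTHIB libraries. Every DTHIB library was far above every DMSO library, and the libraries of a group lay almost on one level. The mean went from 2779 ± 26.2 to 7793 ± 91.6 (SD, n = 4 each), a coefficient of variation of 0.944% and 1.18%. The log2 fold change was 1.49 (SE 0.026, limma adjusted p = 1.09e-16), rank 149 from the highest among the 17194 tested genes. The value in the authors' deposited table is 1.48.

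STC1 (ENSG00000159167, chromosome 8, 23841915 to 23854807, minus strand) encodes the paralogous stanniocalcin, first known as a calcium-regulating hormone of fish. Its transcript was measured at 137, 131, 159 and 127 normalized counts with DMSO and at 31.3, 26.1, 47.9 and 20.9 with DTHIB. All DTHIB libraries were below all DMSO libraries, and DTHIB 3 was the highest of its group. The mean went from 139 ± 14.3 to 31.5 ± 11.7 (SD, n = 4 each), a difference of -2.16 log2 units (SE 0.19, adjusted p = 3.89e-08 in limma) that ranked 45 from the lowest. These values rest on 21 to 165 reads per library, and the authors' deposited table gives -1.93. Per kilobase of exon, the ratio of STC2 to STC1 was 11.9 to 14.6 in the DMSO libraries and 108.9 to 255.7 in the DTHIB libraries. The stanniocalcin transcript present in these cells was thus mainly STC2 in both groups, with STC1 the minor one.

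PAPP-A, an enzyme that stanniocalcins inhibit, was barely present as transcript. PAPPA averaged 2.42 normalized counts with DMSO and 3.32 with DTHIB, from 2 to 4 reads per library, and was not measurable. Its homologue PAPPA2, which cuts IGFBP5 and IGFBP3, was measured at 14.3 ± 5.22 and 11.2 ± 4.24 (SD, n = 4 each), a log2 fold change of -0.34 (limma adjusted p = 0.361).

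IGFBP3 (ENSG00000146674, chromosome 7, 45912245 to 45921874, minus strand) encodes the main carrier of IGFs in blood. It was measured at 928, 1056, 1372 and 1851 normalized counts with DMSO and at 3774, 3411, 2141 and 3513 with DTHIB. The groups did not overlap, but both were broad: DMSO 4 had the highest control value and DTHIB 3 the lowest treated one. The mean went from 1302 ± 411 to 3209.8 ± 729 (SD, n = 4 each), a log2 fold change of 1.32 with SE 0.18 (limma adjusted p = 4.55e-06), rank 238 from the highest. Its coefficient of variation was 31.6% with DMSO and 22.7% with DTHIB, against 0.944% and 1.18% for STC2. The counts ran from 969 to 3622 reads per library, so the spread is larger than counting error. The authors' deposited table gives a smaller log2 fold change, 1.08 with a standard error of 0.23.

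IGFBP2 (ENSG00000115457, chromosome 2, 216632828 to 216664436, plus strand) encodes a binding protein that prefers IGF2 and is often high in prostate cancer. It was measured at 4213, 4189, 4403 and 4436 normalized counts with DMSO and at 4371, 3927, 4104 and 4077 with DTHIB. DTHIB 1 lay among the control values and the other 3 treated libraries below all of them. Means were 4310.2 ± 127 and 4119.8 ± 185 (SD, n = 4 each), a log2 fold change of -0.07 with SE 0.035 (limma adjusted p = 0.107). Without DTHIB 1 the value was -0.09 and passed (limma adjusted p = 0.0204), and under quantile normalization it was 0.02 and of the other sign (adjusted p = 0.676).

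IGFBP4 (ENSG00000141753, chromosome 17, 40443461 to 40457731, plus strand) encodes a binding protein that mainly restrains IGF until PAPP-A cuts it. It was measured at 13.4, 19.1, 14.5 and 17.0 normalized counts with DMSO and at 25.0, 16.7, 27.0 and 30.9 with DTHIB. DTHIB 2 lay within the control range and the other treated libraries above it. The mean went from 16.0 ± 2.58 to 24.9 ± 6.004 (SD, n = 4 each), a log2 fold change of 0.59 with SE 0.24 (limma adjusted p = 0.0379), from 14 to 31 reads per library. The authors' deposited table gives 0.49 with a standard error of 0.26, which was not under 0.05 (DESeq2 adjusted p = 0.118). The sign stayed positive in all 16 alternatives that could be run, but 9 of them lost the call, among them DESeq2 on recovered reads (adjusted p = 0.0774) and the fits without DMSO 1, DMSO 3, DTHIB 1, DTHIB 3 or DTHIB 4 (limma adjusted p = 0.0935, 0.0801, 0.0696, 0.0854 and 0.121).

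IGFBP5 (ENSG00000115461, chromosome 2, 216672105 to 216695525, minus strand) encodes the most conserved binding protein, which attaches to extracellular matrix. It was measured at 53.6, 40.19, 38.6 and 32.1 normalized counts with DMSO and at 50.01, 39.6, 39.9 and 27.9 with DTHIB. The ranges coincided almost entirely. The log2 fold change was -0.07 (SE 0.20, limma adjusted p = 0.787), on 28 to 56 reads per library, and a difference within this error was not detectable at this depth. The antisense gene AC007563.2 shares 1062 bases with it and had no read in any library. The sign turned without DMSO 1 (0.07) or without DTHIB 4 (0.08). IGFBP6 (ENSG00000167779, chromosome 12, 53097436 to 53102345, plus strand), whose product strongly prefers IGF2, had 45 reads in all 8 libraries together, 4 to 10 in each. Its values were 3.83, 3.83, 8.68 and 4.01 with DMSO and 4.17, 10.4, 4.99 and 4.99 with DTHIB, too few to compare.

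The rest of the family was sparse. IGFBP1 averaged 5.85 and 3.08 normalized counts in the DMSO and DTHIB groups and IGFBP7 0.968 and 1.53, both below the minimum. IGFBPL1, a binding-protein-like gene, went from 32.8 ± 6.55 to 9.97 ± 3.33 (SD, n = 4 each), a log2 fold change of -1.67 with SE 0.28 (limma adjusted p = 4.96e-05). Across the family of 8 genes, 5 were tested, 2 rose and 1 fell, with a median log2 fold change of -0.07. Beside this, 31.0% of all tested genes rose and 33.7% fell.

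Divided by exon length and summed, the transcripts of IGFBP1 to IGFBP7 came almost wholly from IGFBP2 and IGFBP3. The sum was 1106, 1132, 1247 and 1357 normalized reads per kilobase with DMSO and 1771, 1592, 1354 and 1648 with DTHIB. DTHIB 3 fell just below DMSO 4, so the groups overlapped in the sum. Its mean went from 1210.5 ± 115 to 1591 ± 175 (SD, n = 4 each), a ratio of 1.31, or 1.19 with the shorter exon lengths of the GENCODE basic transcript set, and 1.26 to 1.38 with any 1 library left out. IGFBP3 made up 18.4%, 20.4%, 24.1% and 29.8% of the sum with DMSO and 46.6%, 46.9%, 34.6% and 46.6% with DTHIB. Every treated library thus had a larger IGFBP3 share than every control. The mean share was 23.2% ± 5.04 and 43.7% ± 6.06 for IGFBP3, and 75.0% ± 4.92 and 54.8% ± 5.89 for IGFBP2 (SD, n = 4 each). With basic-set lengths IGFBP3 held 14.95% and 31.2%, less in both groups and with the same direction.

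**Figure D2:**
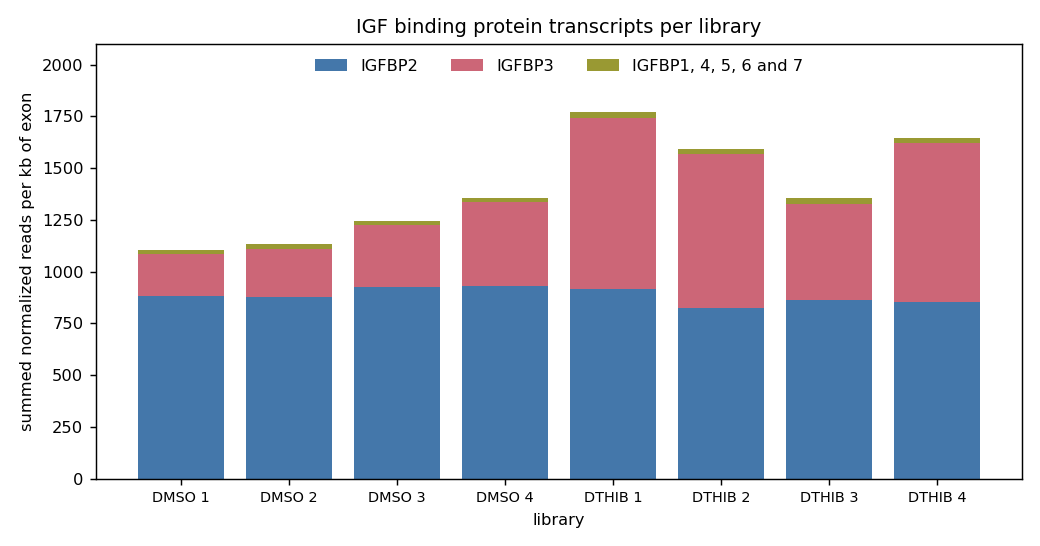
Summed normalized reads per kilobase of exon of IGFBP1 to IGFBP7 (vertical axis, from 0) in each of the 8 libraries, split into IGFBP2 (blue), IGFBP3 (red) and the other 5 genes (green). The blue part stays between 824 and 931 in all libraries while the red part is larger in all 4 DTHIB libraries (468 to 826) than in the DMSO libraries (203 to 405).

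IGF2R (ENSG00000197081, chromosome 6, 159969099 to 160113507, plus strand) was measured at 4498, 4515, 4223 and 4595 normalized counts with DMSO and at 5539.9, 6467, 6060.1 and 6073 with DTHIB. The lowest treated library, DTHIB 1, was above the highest control. The mean went from 4458 ± 162 to 6035 ± 380.4 (SD, n = 4 each), a log2 fold change of 0.44 with SE 0.041 (limma adjusted p = 6.44e-08), and the authors' deposited table also gives 0.44. An antisense RNA, AIRN, shares 4374 annotated bases with the gene, and the sources used here do not give the strand setting of the counting. AIRN itself reached at most 2.08 normalized counts in a library. A pseudogene on the same strand, AL353625.1, overlaps the gene too and averaged 15.7 and 19.7 in the DMSO and DTHIB groups, far below IGF2R.

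Of the 4 genes that rose, IGF2R has a promoter window with an unusual repeat of a single motif, and IGFBP3 is the binding protein gene that rose in every alternative, so the stretches before their RefSeq starts are shown. They were taken from RefSeq on GRCh38.p14, whose table holds 35116 windows of 300 bases, 250 before and 50 after a start, and which matched 7 of the 8 genes. STC1 had no window, so the motif statements below do not cover it. In the stretch of IGF2R (chr6:159968832-159969081, plus strand) capitals mark TCACGTGA, a palindrome that contains the E-box CACGTG and forms the centre of the element bound by TFEB at lysosomal genes. In the stretch of IGFBP3 (chr7:45921275-45921522, minus strand) capitals mark TATATA, letters like those of the box bound by the general factor TBP. This stretch has 248 bases, since GENCODE 29 exons reach the 2 bases nearest the RefSeq start. It lies inside the GENCODE span of IGFBP3 given above, in the first intron of a transcript that starts farther upstream, at 45921874.
IGF2R: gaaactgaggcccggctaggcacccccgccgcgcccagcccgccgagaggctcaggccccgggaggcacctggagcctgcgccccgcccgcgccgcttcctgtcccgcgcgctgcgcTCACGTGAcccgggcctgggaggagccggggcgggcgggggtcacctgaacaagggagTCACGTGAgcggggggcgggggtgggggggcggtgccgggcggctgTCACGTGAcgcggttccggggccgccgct
IGFBP3: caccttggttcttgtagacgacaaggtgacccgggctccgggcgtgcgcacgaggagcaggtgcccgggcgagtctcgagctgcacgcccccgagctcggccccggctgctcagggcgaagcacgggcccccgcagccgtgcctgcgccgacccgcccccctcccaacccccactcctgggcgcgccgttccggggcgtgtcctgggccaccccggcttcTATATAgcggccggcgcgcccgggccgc
The 3 matches of TCACGTGA begin 133, 75 and 29 bases before the IGF2R start. On both strands, 0.980% of all windows held this motif at least once (344 of 35116), and 4 windows, those of IGF2R, RAD9A, DVL2 and BAX, held it 3 or more times. CACGTG, which overlaps every TCACGTGA, was in 7.26% of windows, and in no window of the other members with one. TATATA begins 30 bases before the IGFBP3 start and was in 3.99% of windows. The composite motif TGATGNAA of ATF4 and C/EBP, found in 3.62% of windows, was in none of the members' windows. The heat shock element core GAANNTTC, found in 6.77% of windows, was in the window of IGFBP5 alone among them. CCAAT, in 34.6% of windows, was in that of STC2 and in 1 of 3 windows of IGFBP2. The IGF2R stretch was 79.2% G or C with 33 CpG dinucleotides and the IGFBP3 stretch 75.8% with 32, where the median over all windows was 58.0%. A match describes letters only and shows no binding.

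IGF2R shares its enzyme-sorting work with M6PR, the cation-dependent mannose 6-phosphate receptor, named here after its values were seen. M6PR fell from 1767 ± 77.3 to 1472 ± 37.2 normalized counts (log2 fold change -0.26, limma adjusted p = 1.31e-05), so the receptors moved in opposite directions. Per kilobase of exon, IGF2R over M6PR was 0.496 to 0.587 in the DMSO libraries and 0.780 to 0.964 in the DTHIB libraries. IGF2R did not reach the M6PR level in any of the 8 libraries. Of 13 genes for the mannose 6-phosphate tag and for sorting between Golgi and endosome, M6PR among them, 4 rose and 9 fell (median -0.19). The shares over all tested genes were 31.0% rising and 33.7% falling. GNPTAB, the catalytic part of the enzyme that makes the tag, rose (0.25, limma adjusted p = 1.02e-06), as did the adaptor GGA1 (0.29, 5.38e-07). The related adaptor GGA2 fell (-0.36, 1.12e-08), and so did PLIN3 (-0.37, 4.66e-07), which binds the receptors' tails on endosomes.

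Among ligands and signalling receptors, IGF1R went from 2220.2 ± 57.6 to 3273 ± 185 normalized counts (log2 fold change 0.56, SE 0.039, limma adjusted p = 1.46e-09). INSR, the insulin receptor, went from 853 ± 26.5 to 929 ± 36.9 (0.12, limma adjusted p = 0.0204), a call lost without DMSO 1, DMSO 3 or DTHIB 2 (0.056, 0.0614 and 0.0694). IGF1 was low and fell, from 126 ± 20.6 to 87.5 ± 8.22 (-0.51, limma adjusted p = 0.00188). IGF2, INS and the insulin receptor-related gene INSRR were not measurable, with a highest mean of 0.741. The IGF that IGF2R takes to lysosomes, IGF2, was thus hardly detected as transcript in these cells. Of the list's 7 genes, IGF2R among them, 4 were tested, 3 rose and 1 fell, with a median of 0.28. Beside this, 31.0% of all tested genes rose and 33.7% fell. The ratio of IGF1R to INSR per kilobase was 1.88 to 2.00 with DMSO and 2.52 to 2.76 with DTHIB.

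The list of proteases that act on the binding proteins, which also holds the carrier IGFALS, has 11 genes. Of these 8 were tested, 5 rose, 1 fell and 2 were not called, with a median of 0.29. Over all tested genes 31.0% rose and 33.7% fell. HTRA1, a secreted serine protease that cuts IGFBP5, went from 147 ± 13.5 to 351 ± 43.1 normalized counts (log2 fold change 1.248, limma adjusted p = 3.71e-09). KLK3, which encodes the prostate-specific antigen that cuts IGFBP3, went from 66682 ± 643 to 93753 ± 1168 (0.49, 5.67e-11). It is one of the markers counted above as luminal, and it was far more abundant than any binding protein transcript. KLK2, its close paralogue, was higher by less (0.18, 4.95e-05), a call lost under quantile normalization (0.06, adjusted p = 0.0916). Reads shared by KLK2 and KLK3 could be split between them by the counting. The lysosomal protease CTSD (0.40, 1.98e-08) and the complement protease C1S (0.68, 0.00198) rose. ADAM28, which cuts IGFBP3, fell from 29.2 ± 12.33 to 11.5 ± 5.34 (-1.33, 0.00376), and ADAM12 was at 44.8 ± 12.6 and 35.1 ± 5.63 (-0.32, 0.186). IGFALS, the third partner of the complex of IGF and IGFBP3 in blood, and MMP7 had overall means of at most 8.23 and were not measurable.

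The list of proteins through which IGFBP3 is known to act on cells has 4 genes, and 3 rose and 1 fell. For this list and the next, the shares over all tested genes were 31.0% rising and 33.7% falling. LRP1, a large endocytic receptor that binds IGFBP3, went from 688 ± 59.7 to 1812 ± 243 normalized counts (log2 fold change 1.39, limma adjusted p = 1.33e-10), beside 1.32 for IGFBP3. The death-promoting receptor TMEM219 (0.39, 1.65e-08) and the nuclear receptor RXRA (0.15, 0.000747) rose, and the orphan nuclear receptor NR4A1 fell (-0.38, 3.51e-07). Of 10 receptor adaptors 9 were tested, 2 rose and 3 fell (median 0.04). GRB10, which restrains the IGF1 and insulin receptors, had the largest rise of this list, from 8066 ± 239 to 12538 ± 470.4 (0.64, 1.73e-11). IRS1 (-0.26, 0.000137), GRB2 (-0.17, 0.000256) and SHC1 (-0.10, 0.00615) fell, the last losing its call under quantile normalization (-0.01, adjusted p = 0.694).

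Smaller related families were described in the same way. Of the 3 proteins that bind IGF2 mRNA, IGF2BP2 fell (log2 fold change -0.74, limma adjusted p = 1.08e-05), IGF2BP3 was not called (-0.06, 0.364) and IGF2BP1 was not measurable. Of 6 genes of the CCN family, whose proteins carry an IGFBP-like module, CCN1 alone was measurable and fell (-0.27, 0.00344). Over all the pathway lists, each gene counted once, 74 of 92 genes were tested, 32 rose, 29 fell and 13 were not called, with a median of -0.02 against -0.01 over all tested genes. Thus 61 of the 74 changed, beside 64.6% of all tested genes. The lists were chosen with earlier results of these data known, so this count is a description only.

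**Figure D3:**
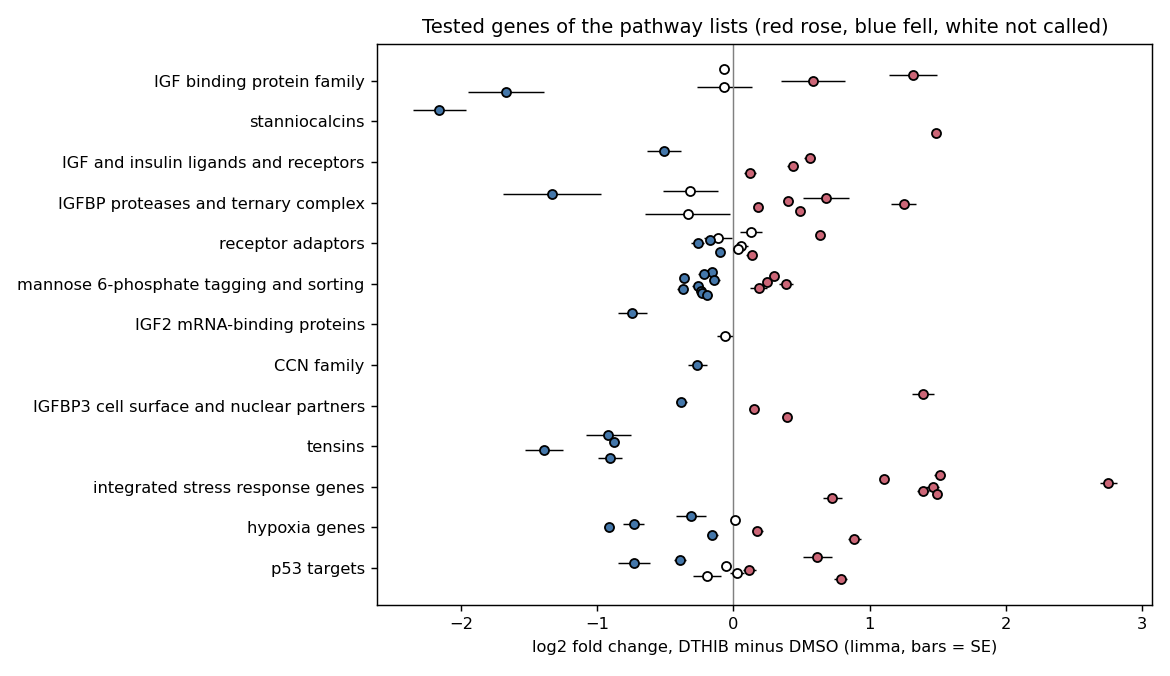
Log2 fold change, DTHIB minus DMSO (horizontal axis), of each tested gene in the 13 pathway lists; points are limma estimates, bars their SE, and colour gives the call. The stanniocalcins lie at -2.16 and 1.49, all 4 tensins below 0 and all 7 integrated stress response genes above 0.

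The genes for binding proteins and tensins, adaptors that link integrins to the cytoskeleton, lie near each other in the genome. IGFBP4 is 18.1 kb from TNS4 on chromosome 17, IGFBP6 is 33.1 kb from TNS2 on chromosome 12, and IGFBP3 and IGFBP5 are 1353 and 1104 kb from TNS3 and TNS1. All 4 tensins fell (median log2 fold change -0.91), where 33.7% of all tested genes fell. TNS1 fell by 0.92, TNS2 by 0.87, TNS3 by 1.39 and TNS4 by 0.91 (limma adjusted p = 0.00011, 1.01e-12, 1.98e-07 and 1.37e-07). None of the binding protein genes set beside them here was called lower: IGFBP3 rose, IGFBP4 rose by the call described above, IGFBP5 was not called and IGFBP6 was not measurable. IGFBP2 and IGFBP5 lie tail to tail 7.67 kb apart, IGFBP2 the abundant and IGFBP5 the sparse one. The pair IGFBP1 and IGFBP3 is 18.6 kb apart, the first not measurable and the second clearly expressed. Of other neighbours, named after their values were seen, TOP2A, 25.5 kb on the other side of IGFBP4, fell from 7874 ± 379.7 to 3008 ± 252 (-1.39, 1.86e-13). SPRYD3, which lies between TNS2 and IGFBP6 and 18.0 kb from the latter, rose (0.22, 8.59e-05). RPL37A, 53.6 kb before IGFBP2, rose (0.36, 1.52e-08), and BOD1, 278 kb from STC2, rose slightly (0.13, 0.00599).

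STC2 is a known target of the integrated stress response, in which ATF4 activates amino acid and redox genes. All 7 genes of that list rose (median 1.46 on the log2 scale), where 31.0% of all tested genes rose and 33.7% fell. The level of ATF4 itself was higher by 1.10 (limma adjusted p = 9.07e-15), TRIB3, a pseudokinase, by 1.49 (7.62e-16), ASNS, asparagine synthetase, by 1.51 (1.03e-14) and CHAC1, which degrades glutathione, by 2.75 (2.15e-15). The STC2 value of 1.49 lies among these. The lists of this paragraph were chosen with earlier results of these data known. Whether this response, hypoxia or p53 had a part in the levels of STC2, STC1 or IGFBP3 was not tested. STC2, STC1 and IGFBP3 are also known to respond to hypoxia, and that list was mixed: of 9 genes 7 were tested, 2 rose and 4 fell (median -0.15). VEGFA (0.89, 3.6e-11) and PDK1 (0.18, 0.00118) rose, and NDRG1 (-0.91, 1.62e-12) and EGLN3 (-0.73, 3.62e-07) fell. IGFBP3 is a textbook target of p53 as well, and of 8 p53 targets 3 rose, 2 fell and 3 were not called (median -0.01). ZMAT3 (0.79, 1.22e-10) and BBC3 (0.62, 7.3e-05) rose, while CDKN1A (-0.39, 2.91e-07) and FAS (-0.73, 4.21e-05) fell.

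Levels can be compared between genes only per length, and the order depends on which transcripts set the length. With the exons of all GENCODE 29 transcripts, IGFBP2 led in DMSO with 904 ± 26.7 normalized reads per kilobase (SD, n = 4), followed by STC2 with 454 ± 4.28, IGFBP3 with 285 ± 89.9 and IGF2R with 249.8 ± 9.09. The libraries of IGFBP3 (203 to 405) and IGF2R (237 to 258) overlapped, so these neighbours did not differ beyond their spread. STC1 followed with 33.4 ± 3.44, and IGFBP4 (7.28 ± 1.17), IGFBP5 (6.38 ± 1.41) and IGFBP6 (3.78 ± 1.78) overlapped. With DTHIB, STC2 led with 1272 ± 14.9, followed by IGFBP2 with 864 ± 38.7, IGFBP3 with 702 ± 159 and IGF2R with 338 ± 21.3. The ranges of IGFBP2 (824 to 917) and IGFBP3 (468 to 826) then overlapped by a narrow margin. Within each DTHIB library IGFBP3 was nevertheless below IGFBP2, at a ratio of 0.544 to 0.906. STC1, at 7.60 ± 2.82, had come down among IGFBP4 (11.3 ± 2.73), IGFBP5 (6.11 ± 1.40) and IGFBP6 (4.56 ± 2.14). With basic-set lengths, which shorten IGFBP2 from 4767 to 1568 bases, IGFBP2 stayed first in DTHIB (2627) ahead of STC2 (1456) and IGFBP3 (1219). Among 17164 tested genes with a length, the level of STC2 went from rank 3576 to rank 1052 and that of IGFBP3 from 5200 to 2093, while IGFBP2 was at rank 1709 and then 1650.0.

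The members differed in how their libraries varied within a group, which no label explains. After subtracting group means, the highest correlation between members was 0.50 for IGFBP2 and IGFBP3 and the lowest -0.79 for IGFBP2 and IGF2R, over the same 8 libraries. Over the 8 libraries without that step, the genes most like STC2 were SARS1, S100P and GDF15 (Pearson r = 0.9995, 0.9994 and 0.9993), and 221 genes had r above 0.99. These coefficients mostly reflect the shared group difference and are given without a test. For STC1 the closest were SLC25A24, MARS2 and DNAJC7 (0.9993, 0.9975 and 0.9975), for IGF2R GSDMB, VPS13C and GALT (0.9972, 0.9964 and 0.9962), and for IGFBP2 CHMP6, CAPZB and SEMA3C (0.972, 0.971 and 0.963). For the sparse IGFBP4 they were STAT5A, TNNT1 and BACE2 (0.986, 0.964 and 0.958), and for IGFBP5 HSPD1P1, TMEM141 and ACOXL (0.947, 0.896 and 0.890); both members rest on few reads.

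IGFBP3 was closest to FN1, NIPAL2 and H2AC6 (Pearson r = 0.9939, 0.9895 and 0.9872 over 8 libraries). FN1, the gene of fibronectin, was measured at 14795, 14910.2, 15499 and 16699 normalized counts with DMSO and at 19546, 19409, 17226 and 19672 with DTHIB. Like IGFBP3, it was highest in DMSO 4 among controls and lowest in DTHIB 3 among treated libraries, with a log2 fold change of 0.29 (limma adjusted p = 1.6e-05). With group means subtracted, the closest to IGFBP3 were DLG2, CACNA1H and LAMTOR1 (0.985, 0.976 and 0.974), of which DLG2 fell under DTHIB (-0.72, 3.54e-07) and CACNA1H rose (0.73, 1.65e-07). By the same measure the closest to STC1 were SLC25A24, MORC3 and MAP3K21 (0.991, 0.988 and 0.986), to STC2 TRAPPC12, TTC32 and TIMM8B (0.974, 0.958 and 0.948), to IGF2R MYO18A, TAOK1 and SLC34A3 (0.984, 0.978 and 0.974), and to IGFBP2 RPL15, C21orf91 and NT5DC1 (0.991, 0.980 and 0.973). To IGFBP4 they were NDUFA5P11, STAT5A and NKIRAS2 (0.985, 0.968 and 0.957), and to IGFBP5 ALDH16A1, FANCB and PSMG2 (0.977, 0.962 and 0.958). With 11649 or 11650 genes compared over 8 libraries, high coefficients arise for any gene, and these are descriptions of the libraries.

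The calls of 4 members held under every alternative that was run. Across 17 alternatives, the log2 fold change of STC2 ran from 1.48 to 1.55, that of IGFBP3 from 1.17 to 1.51, that of IGF2R from 0.40 to 0.52 and that of STC1 from -2.38 to -1.99. IGFBP4 ran from 0.44 to 0.76 and was called in 7 of 16, IGFBP2 from -0.09 to 0.02 and was called in 1 of 17, and IGFBP5 from -0.19 to 0.08 and was called in none of 16.

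**Figure D4:**
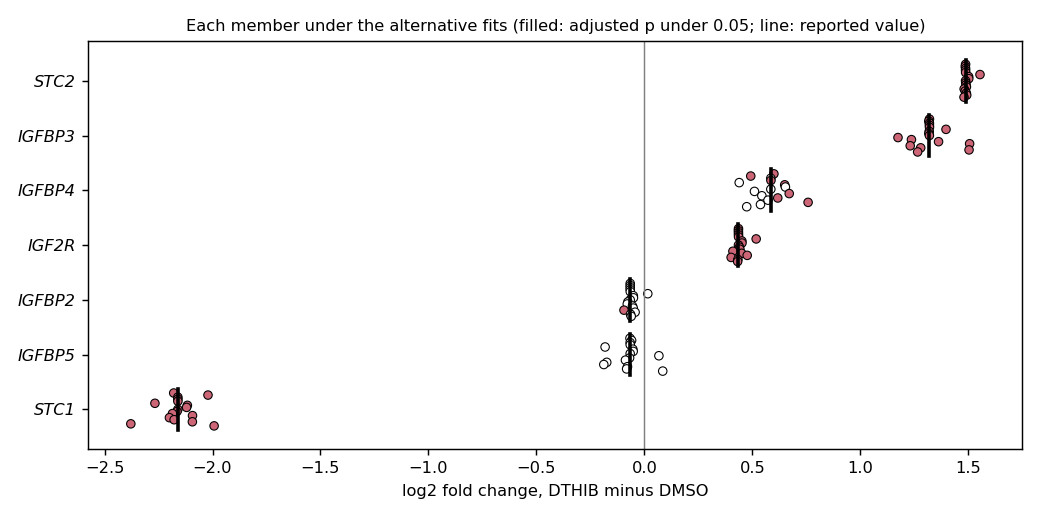
Log2 fold change, DTHIB minus DMSO (horizontal axis), of the 7 measurable genes under each alternative; filled points had an adjusted p under 0.05, open points did not, and the vertical line is the value given in the text. The points of STC2, IGFBP3, IGF2R and STC1 are all filled and stay on one side of 0.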

How the data were processed

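Poly(A) RNA of C4-2 cells was sequenced, with the groups taken from the treatment labels. Against GRCh38, per the submitters' processing notes, the tools were featureCounts 1.6.3, HISAT2 2.1.0, Trimmomatic 0.36.5, DESeq2 2.11.40.2 and StringTie 1.3.4; the sources used here do not give their order, settings, annotation release or strand setting. The authors deposited a signal per gene and library, by its name a DESeq2-normalized count, and a DESeq2 result with mean signal, log2 fold change and its standard error, Wald score, p-value and adjusted p-value. The deposited sign equalled DTHIB minus DMSO in 99.96% of genes.

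In each of the 8 libraries 100% of values were whole multiples of 1 step (tolerance 0.01), so whole reads were recovered; they summed to 27229291 to 30926053 per library. In 3 columns the step lies within 0.261% of 1, where an automatic check of it is void. Of 58884 identifiers 41967 had a symbol and 58611 a GENCODE 29 position; per-kilobase levels divide by the union of a gene's exons.

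The test was limma 3.58.1 (R 4.3.3; two-sided, moderated with an expression trend, no covariates) on log2(normalized count + 1) over genes with a mean of at least 10, with Benjamini-Hochberg adjustment over all 17194; this scale understates changes of low genes. Where no tool is named, an adjusted p is limma's. The script was tested on simulated data. The alternatives left out each library, added a replicate block, used a pseudocount of 0.5 or 5, a minimum mean of 50 or none, quantile or TMM scaling, and DESeq2 1.42.0 or edgeR 4.0.16 on recovered reads; exon lengths of the basic set, TMM and left-out libraries for the binding protein sum were added after seeing the data.

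The members and gene lists were chosen with earlier results of these data known, so nothing here is independent support for a pattern already seen in them. Named genes are the 8 members, every tested gene of the binding protein, ligand and receptor, and protease lists, up to 4 genes with the smallest adjusted p of each other list, and the 3 genes closest to each member by each of the 2 correlation measures, among genes with a symbol and a mean of at least 100; others are said to be chosen after their values were seen.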

Additional observations from a re-analysis of the deposited data

Results flagged for a closer look

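Of 114 groups of 4 libraries, from 57 named genes, 5 had a library far from the other 3, by Dixon's 95% limit, and chance alone sets about 1 in 20 groups apart. IGFBPL1 was at 4.99 normalized counts in DTHIB 4 and at 11.5 to 11.98 in the other treated libraries, a matter of a few reads. PAPPA2 was at 22.01 in DMSO 2 and at 10.6 to 12.5 in the other controls. ATF4 was at 30812 in DTHIB 2 and at 32308 to 32445 in the others. PLIN3 was at 2120 in DMSO 3 and at 2006 to 2009 in the others. FN1, the gene closest to IGFBP3 over the 8 libraries, was at 17226 in DTHIB 3 and at 19409 to 19672 in the others. IGFBP3 was also lowest of its group in DTHIB 3, at 2141. None of the 7 measurable members had such a library. IGFBP6, with too few reads to compare, is not covered by this statement.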

How the results depend on the processing

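The count of changed genes was 11110 and ran from 9483 (mean of at least 50) to 11557 (no filter); it was 10367 to 10893 with any 1 library left out. The changed members numbered 5, or 4 in 9 alternatives that lost IGFBP4 or, at a mean of at least 50, no longer tested it (without DTHIB 1, IGFBP4 was lost and IGFBP2 gained), and 4 to 5 with any 1 library left out. The changed genes of the pathway lists numbered 61, and 57 to 60 with any 1 library left out. Of single genes and sums, 952 values kept their direction and side of the threshold, 14 lost a call and 1 gained one. The sign turned for IGFBP2 (0.0156) and IGF2BP3 (0.00528) under quantile normalization and for IGFBP5 without DMSO 1 (0.0671) or without DTHIB 4 (0.0848), with -0.188 to 0.0848 over the left-out libraries; the cause was not tested. Besides the losses of IGFBP4 given in the report, its adjusted p was 0.102 without a filter and 0.12 under quantile normalization. Samples with the same replicate number did not deviate together (r of -0.07, 0.01, 0.01 and 0.00), and not every sample correlated best with its own number. With the replicate block, 11058 genes, 4 members and 60 list genes changed, and IGFBP4 had an adjusted p of 0.0528. Depth limits IGFBP4, IGFBP5 and IGFBP6, with 4 to 56 reads per library, and PAPPA.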
